A study of Mus musculus with 30 samples.

Results

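The beta subunits of the sodium and potassium pump (Na,K-ATPase) were followed through their 3 genes, Atp1b1, Atp1b2 and Atp1b3. They are 3 of the 12393 genes named by the probe sets of the array. Every probe set whose platform gene symbol was exactly one of these was taken, which gave 8 of 22626 probe sets other than Affymetrix controls: 5 for Atp1b1, 2 for Atp1b2 and 1 for Atp1b3. Of these, 7 were among the 12944 probe sets with a mean log2 value of at least 4 over all arrays, which were tested. The Atp1b1 probe set 1455949_at, with a mean of 2.20, did not pass that filter.

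Forebrain RNA of 30 male C57BL mice was hybridised to Affymetrix MOE430A arrays, with 1 mouse per array and 10 mice per group. The question was how long treatment with clozapine, an atypical antipsychotic, compares with haloperidol, a typical antipsychotic, in gene expression of the mouse brain. Clozapine was given at 12 mg/kg/day and haloperidol at 1.6 mg/kg/day, both in the drinking water for 12 weeks, and the control mice had no drug. All mice were housed singly, have no transgene or deletion named in their labels, and are labelled as 4 weeks old, which cannot be the age after treatment of that length. The labels give the hemisphere as right in the sample source and as left in the tissue field.

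The sodium and potassium pump moves sodium out of cells and potassium in, at the cost of ATP, and so holds the ion gradients on which firing and the uptake of transmitters depend. A working pump needs a catalytic alpha subunit and a beta subunit, a glycoprotein that crosses the membrane a single time, helps the alpha subunit to fold and reach the cell surface, and tunes its affinity for ions. In brain, Atp1b1 encodes the beta subunit best known from neurons. Atp1b2 encodes the glial form, which was first described as an adhesion molecule on glia, and Atp1b3 encodes a more widely shared form. Probe sets for alpha subunits were not analysed here.

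The arrays fell into separate clusters. Clustering on all tested probe sets placed 26 arrays in 3 clusters, called A, B and C here, and left 4 arrays alone (clozapine 7, haloperidol 2, haloperidol 7 and control 1). Treatments were spread unevenly over them, with 3 clozapine, 5 haloperidol and 3 control arrays in cluster A. In cluster B there were 1, 3 and 4 arrays of these groups, and in cluster C 5, 0 and 2. The difference between 3′ and 5′ control probes of Gapdh and Actb, which grows when RNA is degraded, averaged 0.64 ± 0.11 log2 units in cluster A, 0.60 ± 0.15 in B and 1.06 ± 0.22 in C (SD, n = 11, 8 and 7). It reached 2.45 on haloperidol 7 and 4.09 on control 1. Forebrain markers were present, with Neurod6 at 8.04 and Ppp1r1b at 8.65 (2 of 6 listed were analysed here), while the cerebellar markers Pcp2, Gabra6 and En2 lay near background at 3.12, 2.61 and 2.96. The cerebellar list was not silent as a whole, since Cbln1 and Zic1 averaged 6.01 and 9.31. The tissue is a mixture of cells, so fewer cells of a type and less RNA per cell cannot be told apart in any value.

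Atp1b1 gave strong signals in every group, and no group stood apart. Its brightest probe set, 1423890_x_at, averaged 13.22 ± 0.16 on the log2 scale in clozapine mice, 13.13 ± 0.25 in haloperidol mice and 13.20 ± 0.16 in control mice (SD, n = 10 each). The lowest, median and highest arrays were 12.95, 13.18 and 13.49 with clozapine, 12.69, 13.21 and 13.45 with haloperidol, and 12.96, 13.23 and 13.48 in controls. The 3 ranges overlapped over most of their length, and the lowest arrays of all were haloperidol 4 at 12.69 and haloperidol 2 at 12.76. With clozapine the level was 1.02 times that of controls, with a 95% confidence interval of 0.883 to 1.17. With haloperidol it was 0.954 times that of controls, with an interval of 0.828 to 1.10. The order of the 3 group means (clozapine, control, haloperidol) therefore holds no step larger than the spread between mice.

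The second Atp1b1 probe set, 1439036_a_at, averaged 12.78 ± 0.19 with clozapine, 12.86 ± 0.24 with haloperidol and 12.90 ± 0.21 in controls (SD, n = 10 each). Its arrays ran from 12.48 through a median of 12.76 to 13.06 with clozapine, from 12.44 through 12.96 to 13.10 with haloperidol, and from 12.52 through 12.91 to 13.21 in controls. Of 10 clozapine arrays, 8 lay below the control mean, but all 3 ranges overlapped and the difference from control was -0.12 (SE 0.11, unadjusted p = 0.270). The third, 1451152_a_at, averaged 12.22 ± 0.15, 12.13 ± 0.14 and 12.18 ± 0.18 in clozapine, haloperidol and control mice (SD, n = 10 each). Of the 7 tested beta subunit probe sets it varied least: its SD within groups was 0.16, and 1.25% of all tested probe sets had a smaller one. Among the 266 probe sets whose mean lay within 0.5 of its own, 6.0% had a smaller SD.

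The fourth Atp1b1 probe set, 1418453_a_at, averaged 12.06 ± 0.28 with clozapine, 12.15 ± 0.40 with haloperidol and 12.21 ± 0.46 in controls (SD, n = 10 each). It ran from 11.59 through a median of 11.95 to 12.47 with clozapine, from 11.33 through 12.16 to 12.68 with haloperidol, and from 11.08 through 12.28 to 12.61 in controls. Its lowest value in the whole study was control 1 and its next lowest was haloperidol 7, the same pair of arrays that had the largest 3′ to 5′ differences. Weak signal marked the last probe set, 1455949_at, with means of 2.21 ± 0.04, 2.26 ± 0.14 and 2.14 ± 0.11 in clozapine, haloperidol and control mice (SD, n = 10 each), close to the floor that GCRMA gives to probes without signal. In a fit with no filter on low values its haloperidol mean was 0.12 above control (SE 0.051, unadjusted p = 0.0295, adjusted p = 0.926), in a comparison where 2.25% of all probe sets had an unadjusted p under 0.05. At values this close to the floor, the difference is not read as one of expression.

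**Figure D1:**
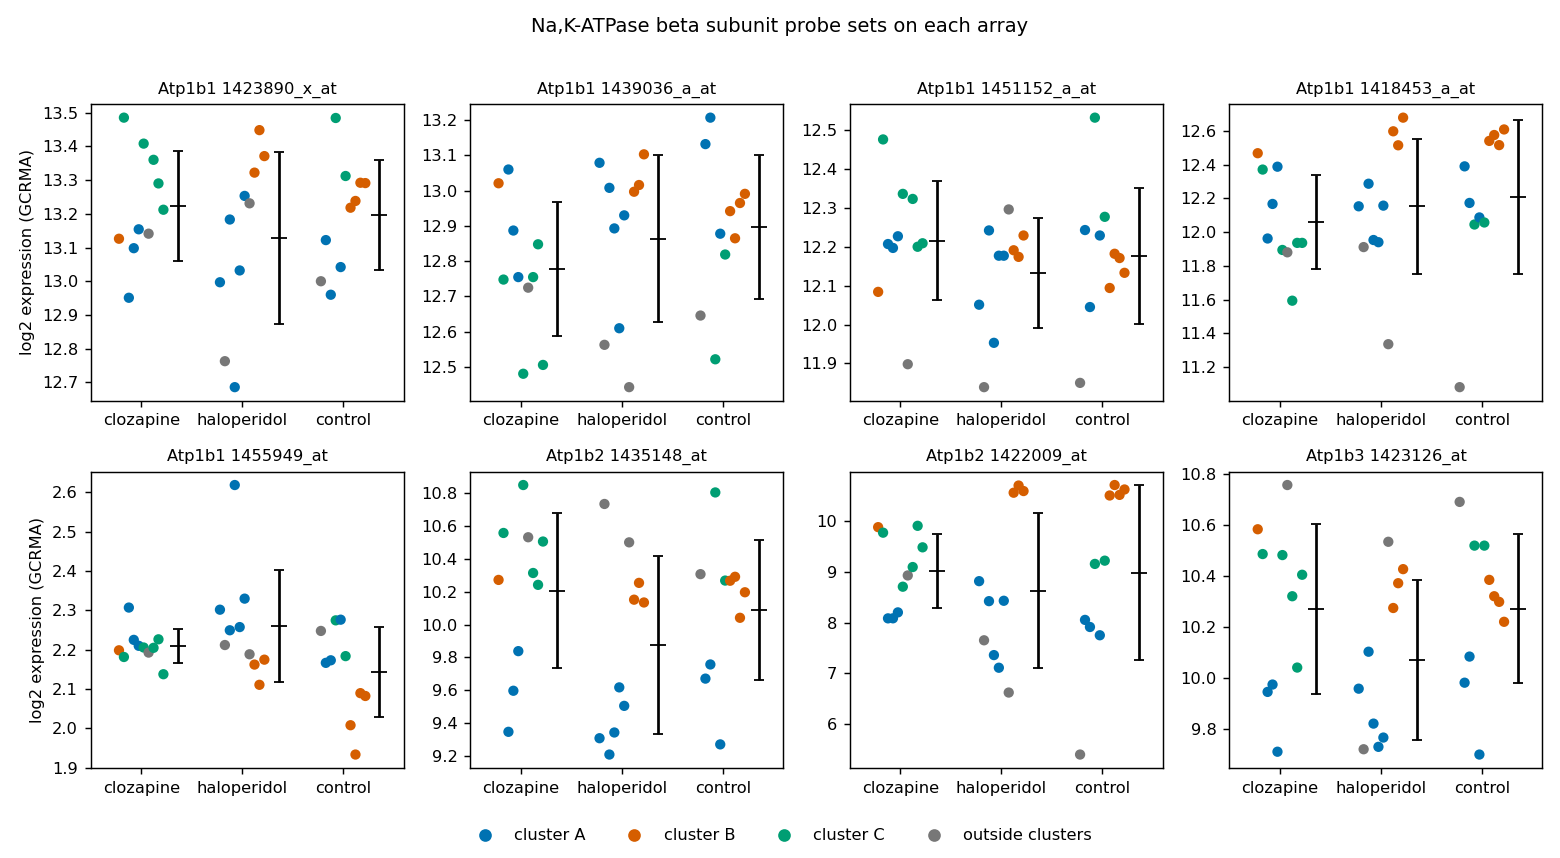
Log2 expression (GCRMA, vertical axes, a separate scale in each panel) of the 8 Na,K-ATPase beta subunit probe sets, 1 panel each, for clozapine, haloperidol and control mice from left to right. Each point is 1 array, coloured by array cluster (A, B, C, or grey for the 4 arrays outside them), and the bar beside each group is its mean ± SD (n = 10). Groups overlap in all 8 panels, while colours separate most in Atp1b2 1422009_at, where the 8 cluster B arrays average 10.52 and the 11 cluster A arrays 8.02.

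Atp1b2, the glial beta subunit, was measured by a pair of probe sets whose values differed in spread and in the order of the arrays. Its brighter probe set, 1435148_at, averaged 10.21 ± 0.47 with clozapine, 9.88 ± 0.54 with haloperidol and 10.09 ± 0.42 in controls (SD, n = 10 each). The lowest, median and highest values were 9.35, 10.29 and 10.85 with clozapine, 9.21, 9.88 and 10.73 with haloperidol, and 9.27, 10.23 and 10.80 in controls. Each group thus covered nearly the whole range of the probe set. The clozapine mean was 1.26 times the haloperidol mean, the clearest of the 3 differences for this probe set, but its 95% confidence interval ran from 0.931 to 1.69 (unadjusted p = 0.130).

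The other Atp1b2 probe set, 1422009_at, averaged 9.02 ± 0.74 with clozapine, 8.63 ± 1.53 with haloperidol and 8.99 ± 1.73 in controls (SD, n = 10 each). Its arrays ran from 8.08 through a median of 9.01 to 9.91 with clozapine, from 6.62 through 8.43 to 10.71 with haloperidol, and from 5.39 through 9.19 to 10.72 in controls. The clozapine mice lay inside the ranges of both other groups. Over all arrays the values spanned 5.33 log2 units, and the SD within groups, 1.40, was larger than that of 97.7% of all tested probe sets. Among the 1723 probe sets whose mean lay within 0.5 of its own, 98.0% had a smaller SD. With an SE of 0.60 on each difference, the intervals were wide: 0.439 to 2.37 times control for clozapine, and 0.336 to 1.81 times control for haloperidol.

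Atp1b3 averaged 10.27 ± 0.33 with clozapine, 10.07 ± 0.31 with haloperidol and 10.27 ± 0.29 in controls (SD, n = 10 each), from its only probe set, 1423126_at. Arrays ran from 9.71 through a median of 10.36 to 10.76 with clozapine, from 9.72 through 10.03 to 10.53 with haloperidol, and from 9.70 through 10.31 to 10.69 in controls. The ranges began at nearly the same value in all 3 groups. Clozapine mice had 0.999 times the control level, with a 95% confidence interval of 0.815 to 1.22. Haloperidol mice had 0.870 times the control level, with an interval of 0.710 to 1.07 (unadjusted p = 0.172), and clozapine mice had 1.15 times the haloperidol level, with an interval of 0.937 to 1.41 (unadjusted p = 0.175).

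In the test across all 12944 probe sets, none of the 7 beta subunit probe sets was called in any comparison at an adjusted p under 0.05. For clozapine against control 0 of 7 were called, where 0% of all tested probe sets were (adjusted p = 1.0 for each beta subunit probe set), and 0 of 7 had an unadjusted p under 0.05, where 4.35% of all tested probe sets did. The same counts were 0 and 0 of 7 for haloperidol against control, where 0% and 2.3% of all tested probe sets passed, and 0 and 0 of 7 for clozapine against haloperidol, where 0% and 3.14% passed. The adjusted p was 1.0 throughout for haloperidol against control and ran from 0.965 to 0.969 for clozapine against haloperidol. With 0% of the array called, a count of 0 says nothing particular about the beta subunits. A p that misses the threshold does not show that levels were equal, and the intervals set the size that could have been missed: the Atp1b1 probe sets were bounded to between 0.707 and 1.17 times control with clozapine, and to between 0.754 and 1.23 times with haloperidol.

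The signs of the differences were as follows. For clozapine against control, 4 of the 7 probe sets were higher and 3 lower, with a median difference of 0.027, beside a median of 0.023 and 55.3% higher over all tested probe sets. For haloperidol against control all 7 were lower, with a median difference of -0.067, beside a median of -0.030 and 43.5% higher over all tested probe sets. For clozapine against haloperidol 5 were higher and 2 lower, with a median difference of 0.094, beside a median of 0.050 and 60.7% higher. Both drugs were compared with the same 10 control arrays, and several of the probe sets measure the same gene, so these counts are not independent of one another. After quantile normalization, all 7 were again lower for haloperidol against control, with a median of -0.073 beside 0.0041 over all tested probe sets, and 5 of 7 were higher for clozapine against control. For haloperidol against control all 7 were also lower with RNA quality as a covariate and without control 1, with medians of -0.147 and -0.154. Over all tested probe sets these medians were -0.019 and -0.020. Limma array weights, leaving out haloperidol 2 and leaving out 3 arrays each gave 1 higher and 6 lower. Leaving out haloperidol 7 gave 2 higher and 5 lower. With the array cluster as a block the split for haloperidol against control became 2 higher and 5 lower, and for clozapine against haloperidol 3 higher and 4 lower, the median differences being -0.024 and -0.0045. When array weights were added to the cluster block, an alternative added after seeing the data, the splits were 5 higher and 2 lower, and 1 higher and 6 lower. Markers of neurons, 8 of 8 tested, were all lower with haloperidol than in controls, with a median difference of -0.10, and 5 of 8 were higher with the cluster as a block. Their part in the beta subunit differences was not tested.

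**Figure D2:**
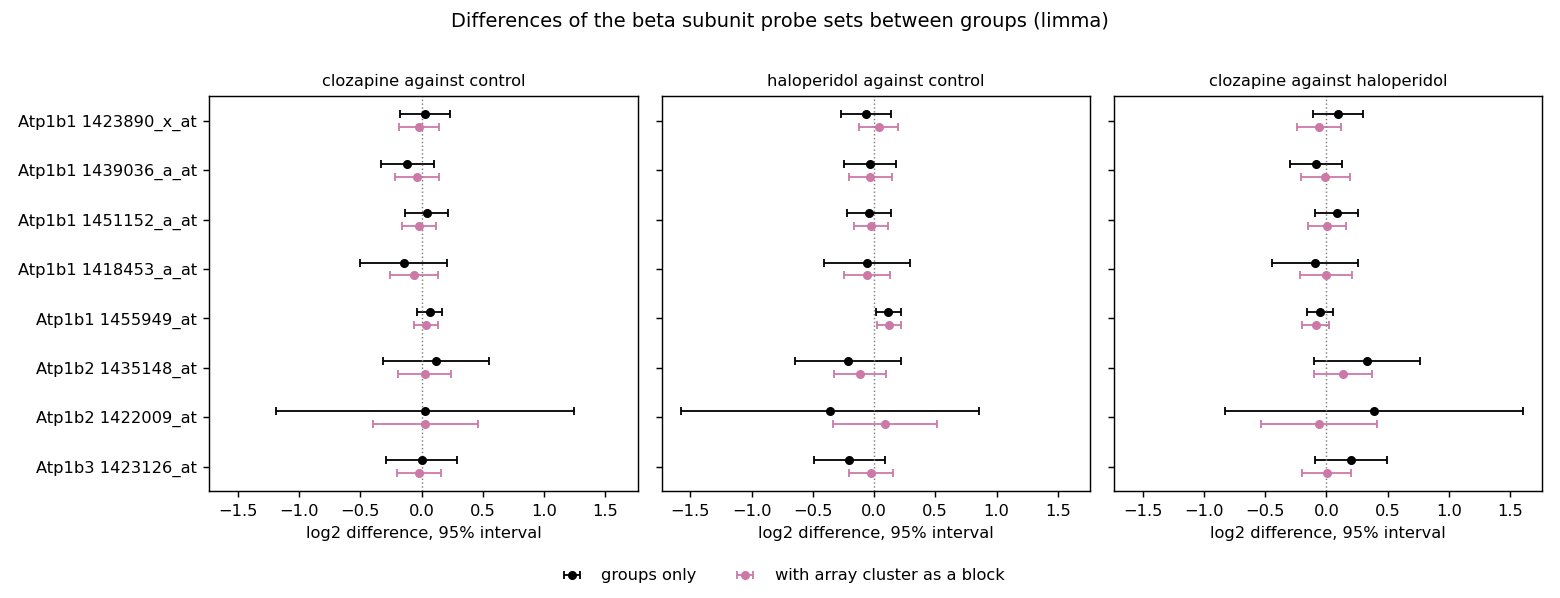
Differences of the 8 beta subunit probe sets on the log2 scale (horizontal axis) with 95% confidence intervals, for clozapine against control, haloperidol against control and clozapine against haloperidol. Black points are from the fit with groups only and pink points from the fit with the array cluster as a block; 1455949_at is from fits with no filter. All intervals of the 7 tested probe sets include 0, and those of Atp1b2 1422009_at are the widest, at -1.19 to 1.25 for clozapine against control.

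A single setting changed a call. In that setting limma weighted each array by how closely its values followed its group means, as estimated from these same arrays. With these weights Atp1b1 1418453_a_at was lower with clozapine than in controls by a log2 difference of -0.38 (SE 0.12, adjusted p = 0.0354). It was among 1731 called probe sets, or 13.4% of those tested. Weights ran from 0.144 to 1.69 on the 20 drug arrays and from 3.44 to 4.86 on controls 7 to 10, all from cluster B, so these 4 mice carried most of the weight of the control group. With the array cluster added as a block, an alternative chosen after that call was seen, the difference was -0.064 (adjusted p = 0.906) and 0 probe sets were called.

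More of the variance of the beta subunits lay between clusters than between treatments. The clusters were made from these arrays, with the 7 tested probe sets among those used, so what follows describes them and tests nothing. Over the 26 clustered arrays, the share of variance between clusters was 88.2% for Atp1b2 1422009_at, 84.7% for Atp1b2 1435148_at, 75.8% for Atp1b3 and 43.8% to 69.7% for the 4 Atp1b1 probe sets, against a median of 40.8% over all tested probe sets. The share between treatment groups over all 30 arrays ran from 1.75% to 9.18%, against a median of 4.74%. All 7 exceeded the median share for clusters, and Atp1b2 did so by the widest margin.

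Atp1b2 1422009_at averaged 8.02 ± 0.49 in cluster A, 10.52 ± 0.27 in B and 9.34 ± 0.42 in C (SD, n = 11, 8 and 7). The 3 haloperidol and 4 control arrays of cluster B lay between 10.51 and 10.72, and the lone clozapine array of that cluster at 9.89. No cluster A array exceeded 8.82. The arrays outside the clusters were lower for the most part, at 5.39 on control 1, 6.62 on haloperidol 7 and 7.65 on haloperidol 2, while clozapine 7 was at 8.93. The 2 lowest values were on the 2 arrays with the largest 3′ to 5′ differences.

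Within clusters, group means of this probe set differed by at most 0.22, except for the lone clozapine array of cluster B. In cluster A it averaged 8.12 with clozapine (3 arrays), 8.03 with haloperidol (5) and 7.90 in controls (3). In cluster B the clozapine array was at 9.89, the haloperidol mean was 10.63 and the control mean 10.60, and in cluster C the clozapine mean was 9.40 and the control mean 9.19. With the cluster as a block, each array outside the clusters was a block of its own, so only arrays of clusters A, B and C bore on the differences. These blocks were made from the same values, and cluster C held no haloperidol array. In that fit the difference from control was 0.088 (SE 0.21) for haloperidol in place of -0.36 (SE 0.60). The sign turned, and both values were within 1 SE of 0. Single arrays moved the unblocked difference too, to -0.76 without control 1 and to -0.14 without haloperidol 7.

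The brighter Atp1b2 probe set, 1435148_at, ranked the clusters differently. It averaged 9.50 ± 0.21 in cluster A, 10.20 ± 0.09 in B and 10.50 ± 0.25 in C (SD, n = 11, 8 and 7), so that C, not B, was highest. Control 1 and haloperidol 7, lowest by the other probe set, were at 10.31 and 10.50 here, among the upper arrays. Atp1b3 followed a similar order, with 9.89 ± 0.15 in cluster A, 10.36 ± 0.11 in B and 10.39 ± 0.17 in C (SD, n = 11, 8 and 7), and its highest values were on clozapine 7 at 10.76 and control 1 at 10.69.

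**Figure D3:**
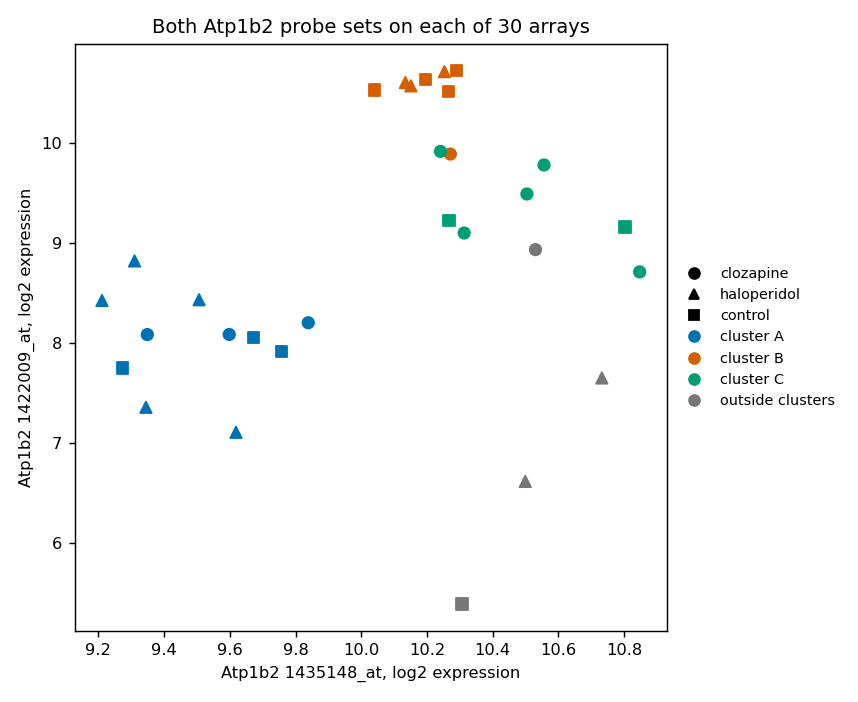
Log2 expression of Atp1b2 by probe set 1435148_at (horizontal axis) and by probe set 1422009_at (vertical axis) on each of the 30 arrays. Shapes mark clozapine, haloperidol and control mice and colours mark the array clusters. The clusters lie mostly apart, with no haloperidol array in cluster C. The lone clozapine array of cluster B, at 10.27 and 9.89, lies below the other arrays of that cluster and beside clozapine 9 of cluster C, at 10.24 and 9.91. Control 1, at 10.31 by the first and 5.39 by the second, lies furthest from the rest.

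The disagreement between the pair of Atp1b2 probe sets can be given per array as 1422009_at minus 1435148_at. It averaged -1.19 ± 0.57 with clozapine, -1.25 ± 1.56 with haloperidol and -1.10 ± 1.66 in controls (SD, n = 10 each), so treatment groups did not differ beyond their spread. By cluster it averaged -1.48 ± 0.56 in A, 0.32 ± 0.29 in B and -1.17 ± 0.59 in C (SD, n = 11, 8 and 7). It was -4.92 on control 1, -3.88 on haloperidol 7 and -3.08 on haloperidol 2. The probe sets disagreed most on 3 of the 4 arrays outside the clusters.

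For comparison, the difference between the 2 brightest tested probe sets was taken for each of 2853 genes with at least 2. The SD of that difference over the arrays was 1.31 for Atp1b2, larger than in 94.8% of these genes, with 146 genes above it. For Atp1b1 it was 0.303, larger than in 12.1% of genes, and the median gene had 0.542. Atp1b1 and Atp1b2 thus sat toward opposite ends of the same distribution. The small value of Atp1b1 goes with probe sets that each varied little, with SDs within groups of 0.20 and 0.21, and it does not show that they moved together. Such SDs were not unusual for bright probe sets. Among those with a mean within 0.5 of theirs, 34.8% and 35.6% had a smaller SD.

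**Figure D4:**
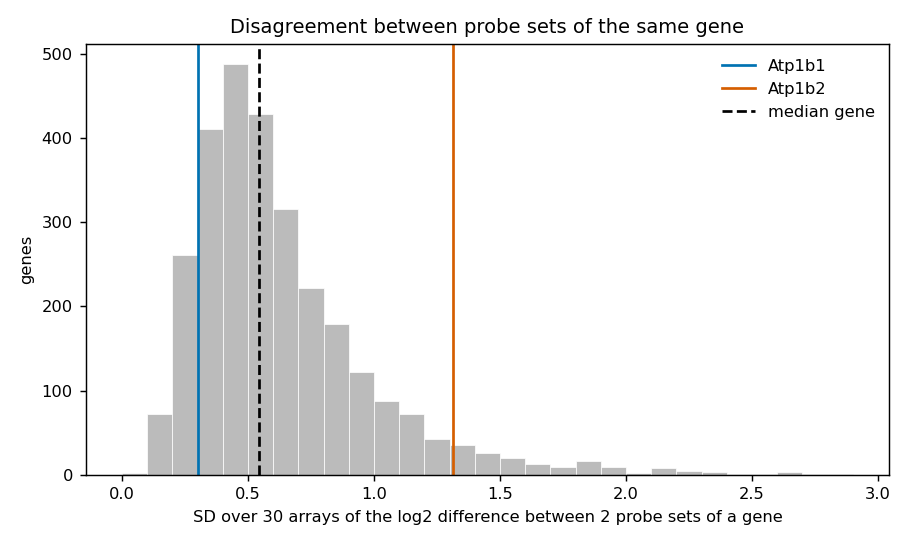
Number of genes (vertical axis) by the SD over 30 arrays of the log2 difference between the 2 brightest tested probe sets of a gene (horizontal axis), for 2853 genes. Lines mark Atp1b1 at 0.303, Atp1b2 at 1.31 and the median gene at 0.542 (dashed), so Atp1b2 lies in the right tail.

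Within Atp1b1 the probe sets did not all track one another either. After group and cluster means were taken out, over 26 arrays, 1423890_x_at and 1451152_a_at, which are annotated to the same GenBank entry, had a Pearson r of 0.80. The r of 1423890_x_at was 0.52 with 1418453_a_at and -0.035 with 1439036_a_at, and that between the Atp1b2 probe sets was -0.27. These values share arrays and normalization and are given as a description.

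Between the genes, the brightest probe sets were compared within each cluster, in 9 relations. The highest was that of Atp1b1 with Atp1b2 in cluster C (Pearson r = 0.59, exact permutation p = 0.155, Spearman rho = 0.64, exact permutation p = 0.139, n = 7, adjusted permutation p = 0.600 for both), and r was 0.89 without the 2 arrays farthest from the median of Atp1b1. In cluster B the same pair went the other way (Pearson r = -0.34, exact permutation p = 0.400, Spearman rho = -0.62, exact permutation p = 0.115, n = 8, adjusted permutation p = 0.600 for both). There r was -0.66 without the 2 arrays farthest from the median of Atp1b1. No relation passed after adjustment, and the lowest adjusted permutation p was 0.600.

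Some genes followed the beta subunits closely over the arrays. For Atp1b1 1423890_x_at, the 5 other genes with the highest r of deviations from group means over 30 arrays were Prnp (0.75), the prion protein, then Enpp5 (0.74), Gprasp1 (0.73), Scd2 (0.73) and Scamp1 (0.72). For Atp1b2 1435148_at they were Mrpl41 (0.94), a protein of the mitochondrial ribosome, Pea15a (0.94), Trappc1 (0.93), Saraf (0.93) and Timp2 (0.92), an inhibitor of metalloproteinases. For Atp1b3 they were Rnf14 (0.93), Srsf11 (0.93), Gas5 (0.92), Ints6l (0.92) and Snx10 (0.91). These likenesses held less once cluster means were also taken out, over 26 arrays, at 0.48 for Prnp, 0.75 for Mrpl41 and 0.64 for Rnf14. Among the 5 neighbours of each, r then ran from 0.14 (Gprasp1) to 0.53 (Enpp5) for Atp1b1. It ran from 0.56 (Timp2) to 0.77 (Saraf) for Atp1b2 1435148_at, and from 0.55 (Gas5) to 0.64 (Srsf11) for Atp1b3. For Atp1b2 1422009_at, added after its values were seen, the 5 nearest genes were Atp6v0a1 (0.95), a subunit of the vacuolar proton pump, Mapk8ip3 (0.95), Mapk14 (0.94), Scn3b (0.94), a sodium channel subunit, and Ttc7b (0.94). Without cluster means their r ran from 0.68 (Ttc7b) to 0.84 (Atp6v0a1). The pair of Atp1b2 probe sets shared none of these neighbours.

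Levels of Atp1b2 1422009_at also differed between ranges of the replicate number in the sample titles. Over all groups, it averaged 9.86 ± 1.21 on the 12 arrays numbered 7 to 10 and 8.22 ± 1.04 on the 18 numbered 1 to 6. These means were 9.36 and 8.79 in clozapine mice, 9.62 and 7.96 in haloperidol mice, and 10.60 and 7.91 in controls. The comparison of clozapine with control therefore depended on the numbers used, with a difference of 0.88 among numbers 1 to 6 and -1.24 among numbers 7 to 10. Without control 1, the difference among numbers 1 to 6 was 0.37, from 8.79 in clozapine mice and 8.42 in the 5 controls that remained. Signs for haloperidol against control also depended on the numbers. Among numbers 7 to 10, 1423890_x_at (0.083), 1451152_a_at (0.077), 1435148_at (0.061) and Atp1b3 (0.096) were higher, and the rest of the tested probe sets lower. Without haloperidol 7, the remaining haloperidol and control arrays of these numbers were all in cluster B. There 1439036_a_at (0.098), 1418453_a_at (0.037) and 1422009_at (0.028) were higher, and only 1435148_at (-0.019) was lower. Among numbers 1 to 6, 1418453_a_at (0.095) and 1422009_at (0.050) were higher, and the rest lower. Without control 1 both were lower, at -0.084 and -0.46, as were all the other tested probe sets. The labels do not say what the numbers stand for. All 4 controls numbered 7 to 10 were in cluster B, while clozapine 8, 9 and 10 were in cluster C and clozapine 7 was outside the clusters. For clozapine against control, treatment and cluster therefore cannot be told apart among these numbers.

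Partners of the pump were read from a list of 12 genes, of which 8 had a probe set analysed here and 5 passed the filter, all of them FXYD proteins, small membrane proteins that bind the pump and modulate it. None of the 5 was called in any comparison. For clozapine against control all 5 were higher, with a median difference of 0.32, beside a median of 0.023 and 55.3% higher over all tested probe sets. All 5 were also higher after quantile normalization, with the cluster as a block and with 3 arrays left out. These refits reuse the same genes and arrays, so they are not independent of one another. Fxyd5 had the smallest p of them, at 6.24 ± 0.43 with clozapine and 5.80 ± 0.50 in controls (SD, n = 10 each), a difference of 0.44 (SE 0.20, unadjusted p = 0.0333, adjusted p = 1.0). Fxyd1, or phospholemman, averaged 7.30 ± 0.57 with clozapine, 7.07 ± 0.66 with haloperidol and 6.95 ± 0.36 in controls (SD, n = 10 each). Fxyd7, a brain member of the family, averaged 8.12 ± 0.47, 7.86 ± 1.03 and 7.99 ± 0.39 in the same order, and Fxyd6 8.24 ± 0.85, 8.08 ± 0.75 and 8.11 ± 0.66. Fxyd2 was near the filter at 4.73 ± 0.39, 4.49 ± 0.43 and 4.41 ± 0.38. The gene related to the beta subunits but not a member, Atp1b4, was near background at 2.87, 2.79 and 2.73, as were Fxyd3 and Fxyd4.

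The summed signal of the partners differed between clusters as well. Taken over all 8 listed partners with a probe set, Atp1b4 and the others under the filter among them, it was 9.17 ± 0.22 in cluster A, 9.94 ± 0.12 in B and 9.90 ± 0.31 in C (SD, n = 11, 8 and 7). The brightest genes weigh most in this sum, so it does not describe each partner. The part of the clusters in the clozapine differences was not tested. By group the sum ranged from 8.88 to 10.40 with clozapine, 8.78 to 10.96 with haloperidol and 9.09 to 10.03 in controls. Neuronal markers, all 8 above the filter, summed to 14.42 ± 0.08, 14.96 ± 0.05 and 14.81 ± 0.09 in clusters A, B and C, and astrocyte markers, also 8 of 8, to 13.45 ± 0.09, 13.57 ± 0.06 and 13.62 ± 0.07. By treatment, neuronal markers ranged from 14.44 to 15.00 with clozapine, 14.30 to 15.02 with haloperidol and 14.32 to 14.96 in controls, and astrocyte markers from 13.39 to 13.68, 13.44 to 13.76 and 13.24 to 13.74. Neither list had a called member, and the part of cell composition in the beta subunit values was not tested.

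Other ion pumps of the same enzyme family gave no calls, with 3 of 11 listed genes tested. Atp2a2, the calcium pump of the endoplasmic reticulum, averaged 12.54 ± 0.26 with clozapine, 12.28 ± 0.37 with haloperidol and 12.40 ± 0.21 in controls (SD, n = 10 each), and its difference between clozapine and haloperidol was 0.26 (SE 0.13, unadjusted p = 0.0598, adjusted p = 0.965). Atp2b2, a calcium pump of the plasma membrane, was -0.14 from control with clozapine (SE 0.11, unadjusted p = 0.219). Atp2c1, the calcium and manganese pump of the Golgi, was -0.034 from control with haloperidol (SE 0.17, unadjusted p = 0.839).

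Transporters and channels that depend on the gradients made by the pump were tested for 8 of 14 listed genes, and 0 were called. For haloperidol against control all 8 were lower, with a median difference of -0.15, beside a median of -0.030 and 43.5% higher over all tested probe sets. After quantile normalization 7 of 8 were lower, and with the cluster as a block 5 of 8. Kcnj10, the inwardly rectifying potassium channel of astrocytes, had the smallest p, with 7.48 ± 0.38 in haloperidol mice and 7.77 ± 0.17 in controls (SD, n = 10 each), a difference of -0.29 (SE 0.12, unadjusted p = 0.0268, adjusted p = 1.0). Slc8a1, a sodium and calcium exchanger, averaged 6.18 ± 0.93 with clozapine, 5.38 ± 1.17 with haloperidol and 5.92 ± 0.82 in controls (SD, n = 10 each), and clozapine differed from haloperidol by 0.80 (SE 0.42, unadjusted p = 0.0662, adjusted p = 0.965). Among the glutamate transporters, clozapine differed from control by 0.15 for Slc1a1, a neuronal form (SE 0.10, unadjusted p = 0.155), and by -0.19 for Slc1a3, an astrocyte form (SE 0.16, unadjusted p = 0.254).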

How the data were processed

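The authors deposited 22690 probe set values per array on a log2 scale. GCRMA is named as the method in the submitters' processing notes. It models background from probe sequence and compresses weak probe sets into a narrow low range. No version, scan date or genome build is given in the labels, so no coordinates are printed. Control probe sets (64) were left out. By the platform annotation 20380 probe sets had 1 symbol, 691 several and 1555 none.

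Groups were taken from the sample titles. One linear model with a mean per group was fitted to the 30 arrays with limma (version 3.58.1, R version 4.3.3), leaving 27 residual degrees of freedom. Tests were two-sided, with Benjamini-Hochberg adjustment over 12944 probe sets with a mean of at least 4. The fit was tested on simulated data. The number of arrays limits the precision. Probe sets of a gene were subtracted from each other within arrays only to follow how that difference varied, since its level has no meaning across probes. Permutation tests were two-sided, exact under 10 arrays and otherwise with 100000 resamples. Same-numbered arrays of different groups correlated from -0.50 to 0.80 in their deviations from group means, over 0.1 in 5, 5 and 7 of 10 pairs, so numbers were not taken as pairs. Average linkage on 1 minus Pearson r cut the arrays into 7 groups, of which 4 held 1 array. The cluster block used all 7, so an array alone in its group did not bear on the blocked differences.

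All members were named, with every tested pump partner, the 2 smallest p of each other list and comparison, and the 5 genes most like each member. List genes stand with their brightest probe set. Members and lists were chosen with earlier results of these data known. Alternatives were no filter, quantile normalization, blocks for replicate number, number range and cluster, RNA quality as a covariate, fits of only the 2 groups compared, array weights and arrays left out.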

Additional observations from a re-analysis of the deposited data

Results flagged for a closer look

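Of 24 sets of 10 arrays checked (8 probe sets in 3 groups), 3 held an array whose gap to its nearest neighbour exceeded 0.466 of the group's range, the limit at which chance alone picks about 1 set in 20. Atp1b1 1418453_a_at was 11.08 on control 1, the lowest of its group, with the next control at 12.05. The weak Atp1b1 probe set 1455949_at was 2.307 on clozapine 3, the highest of its group, with the next at 2.23, and 2.618 on haloperidol 4, the highest of its group, with the next at 2.33. No cause was tested for these.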

How the results depend on the processing

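The counts of called probe sets stayed at 0 in all 3 comparisons under every alternative but these: array weights gave 1731 for clozapine against control, and for haloperidol against control the cluster block gave 1 and array weights with the cluster block, added after seeing the data, gave 5. Beta subunit differences kept their sign and their side of the threshold in 267 of 289 recomputations. That share is no measure of stability, since many recomputations could not change the difference. These were no filter, the replicate and number range blocks, the fits of only 2 groups, and leaving out an array of neither group compared. Array weights with the cluster block entered it only for 1418453_a_at, clozapine against control. Array weights took Atp1b1 1418453_a_at past the threshold, at -0.38. With the replicate block, 0 probe sets were called and 846, 540 and 642 had an unadjusted p under 0.05 (563, 298 and 406 without it), and the arrays best correlated with their own number were 3, 1 and 1 of 10.

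The differences whose sign turned were near 0 or, for Atp1b2 1422009_at, within their SE in all but the array-weighted fit. For clozapine against control, 1422009_at was -0.13 with RNA quality as a covariate, -0.99 with array weights and -0.37 with 3 arrays left out. Atp1b3 was 0.025, 0.0056 and 0.045 under the same settings, and 0.012 after quantile normalization. Atp1b1 1423890_x_at was -0.020 with the cluster block and -0.0034 with array weights, and 1451152_a_at -0.022 with the cluster block. For haloperidol against control, the cluster block gave 0.088 for 1422009_at and 0.038 for 1423890_x_at, and 1439036_a_at was 0.042 with array weights and 0.030 with 3 arrays left out. For clozapine against haloperidol, the cluster block gave -0.061 for 1422009_at and -0.058 for 1423890_x_at. In that comparison Atp1b2 1435148_at kept its sign but not its size. It was 0.33 (SE 0.21) with groups only, 0.51 (SE 0.21) with 3 arrays left out, 0.52 (SE 0.18) with array weights and 0.14 (SE 0.12) with the cluster block, and was called in none of these. Leaving out control 1, haloperidol 2 or haloperidol 7 gave 0 calls each time. For clozapine against control it put 1422009_at between -0.37 (without control 1) and 0.029, and Atp1b3 between -0.0015 and 0.045 (without control 1). For haloperidol against control it put 1439036_a_at between -0.060 and 0.014 (without haloperidol 7) and 1418453_a_at between -0.18 and 0.036 (without haloperidol 7). Causes were not tested.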
